A study of Mus musculus with 2 samples.

Results

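Levels of 9 genes were followed across marker-gated cell types of 2 single-cell libraries: *Cd40*, the adaptor genes *Traf1*, *Traf2*, *Traf3*, *Traf5* and *Traf6*, the kinase gene *Map3k14*, and *Birc2* and *Birc3*, which encode the ubiquitin ligases cIAP1 and cIAP2. The genes were chosen by symbol for their place in CD40 signalling, with earlier results of these data known, and all 9 were found among the 32285 genes of the count matrices. The cells came from the infarct and the border zone of mouse hearts 3 days after myocardial infarction (MI), and were sorted as positive for CD45, CD11b and CD64, which marks monocytes and macrophages. The groups were CD40 knockout (KO) mice and wild-type (WT) mice, with 1 library in each. Every cell in both groups had been through the infarction and the sort, and there was no uninjured heart. The sources used here do not state the strain, age, sex, knockout allele or number of mice. Since nothing in them checks the genotype, the library labelled CD40 KO is called the KO-labelled library.

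CD40 is a receptor of the tumour necrosis factor (TNF) receptor family that has no enzyme activity of its own and signals by binding TRAF adaptor proteins. In resting cells TRAF3 holds the kinase NIK, the product of *Map3k14*, in a complex with TRAF2 and the cIAPs, where NIK is ubiquitinated and degraded. When CD40 is engaged TRAF3 is degraded instead, NIK accumulates and the noncanonical NF-kB pathway is switched on, while TRAF6 and TRAF2 feed the canonical pathway. In dendritic cells and macrophages CD40 is engaged by CD40 ligand on T cells and platelets and is best known for raising antigen presentation and cytokine output.

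In the KO-labelled library 8146 barcodes shared 90057108 UMIs, each a distinct captured RNA molecule, at a median of 5346.5 per barcode. In the WT library 10624 barcodes shared 139343516 UMIs, at a median of 9353.5. Of these, 7427 and 7570 barcodes passed the filters and doublet removal. The sequences of 23 barcodes occurred in both libraries, and 12 of these were used in both. Cell types were gated by summed UMIs of marker genes per barcode, with cuts set after the sums had been seen. The macrophage gate held 6599 and 6066 barcodes, the dendritic gate 131 and 124, the neutrophil gate 62 and 254, and the fibroblast gate 45 and 129. The endothelial gate held 9 and 183, the T and NK cell gate 10 and 39, and the B cell gate 9 and 25. Levels in the T and NK cell gate and the B cell gate are not given here, so highest and lowest refer to the other gates. In the dendritic gate 19 and 23 barcodes passed the list of mature dendritic markers (*Ccr7*, *Fscn1*, *Ccl22* and others), and the other 112 and 101 are called conventional. A further 300 barcodes of the KO-labelled library and 536 of WT met more than 1 gate and were left out, of which 91 and 90 met the macrophage and the dendritic gates and no other.

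The libraries differed in how their barcodes were spread over clusters, which touches the comparisons between them. A cluster led by *S100a8*, *Mgp*, *S100a9* and *Mt1* held 4389 barcodes (59.1%) of the KO-labelled library and 28 (0.370%) of the WT library, and it was shallow, with medians of 3216 and 2512.5 UMIs. It is called the library-specific cluster here and was given no cell type. Of the macrophage gate 4257 barcodes in the KO-labelled library and 24 in WT lay in it, so values are given with and without it. Other shares differed too. A lipid-associated cluster held 6.87% of the KO-labelled library and 36.3% of WT, and a cluster with macrophage and neutrophil genes 2.96% and 13.5%. Leaving out the library-specific cluster therefore does not make the macrophage gates alike. The gates were cut on summed marker UMIs, so the marker sums that follow describe the gates and do not check them. The 10 macrophage markers summed to 9477 counts per 1000000 UMIs (CPM) in the KO-labelled library and 14310 CPM in WT in the macrophage gate without that cluster, and to 1646 and 1156 CPM in the dendritic gate. The 10 conventional dendritic markers summed to 623 and 830 CPM in the dendritic gate, against 70.5 and 71.6 CPM in the macrophage gate without the cluster. There *Cd24a*, which is also high in neutrophils, supplied 49.9 and 60.0 CPM, and the other 9 markers summed to 20.6 CPM in the KO-labelled library and 11.6 CPM in WT.

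Each group was 1 library, so there was no replicate and no test. Intervals are exact 95% intervals (Poisson for CPM, binomial for shares, conditional binomial for ratios) and cover counting error only. Every direction between groups is a difference between the KO-labelled library and the WT library. A gene was called higher or lower at a 1.5-fold difference if its mean level in the groups compared reached 10 CPM. Tags were counted near the 3′ end, so levels are compared between cells and not between genes.

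The genes lie on chromosomes 1, 2, 9, 11 and 12 of the mouse genome (GRCm38, GENCODE vM21). *Cd40* (ENSMUSG00000017652) is at chr2:165055627-165072948 on the plus strand, *Traf6* at chr2:101678429-101701669 on the plus strand, *Traf1* at chr2:34941750-34961772 and *Traf2* at chr2:25517982-25546940, both on the minus strand. *Traf3* is at chr12:111166370-111267153 on the plus strand, *Traf5* at chr1:191997205-192092559 and *Map3k14* at chr11:103219762-103267472, both on the minus strand. *Birc2* at chr9:7818227-7837064 and *Birc3* at chr9:7848699-7873186 are neighbours on the minus strand, 11634 bases apart. *Traf3* overlaps an annotated gene on the other strand (4930595D18Rik), as do *Traf5* (Gm26879) and *Traf2* (the pseudogene Gm13433), and on its own strand *Map3k14* overlaps 1700028N14Rik and *Traf5* overlaps the microRNA gene Mir3473c and the pseudogene Gstp-ps. How the counting treated such overlaps is not stated in the sources used here.

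Promoter windows from RefSeq (GRCm38.p6, 250 bases before to 50 after the annotated start) were found for 8 of the 9 genes. *Cd40* has no entry. Shown are the windows of the 3 genes that were over 1.5-fold higher in macrophages of the KO-labelled library, and of *Traf3*, which holds NIK in check and was the only one of the 8 with a match to the NF-kB consensus. Capitals mark that match.
Traf1, chr2:34961723-34962022, minus strand: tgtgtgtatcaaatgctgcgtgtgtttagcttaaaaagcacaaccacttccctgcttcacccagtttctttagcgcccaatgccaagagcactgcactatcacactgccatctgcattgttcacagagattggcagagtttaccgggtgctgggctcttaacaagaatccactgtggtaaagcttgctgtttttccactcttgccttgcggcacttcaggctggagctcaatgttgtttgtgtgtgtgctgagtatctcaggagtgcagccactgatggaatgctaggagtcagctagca
Map3k14, chr11:103267352-103267651, minus strand: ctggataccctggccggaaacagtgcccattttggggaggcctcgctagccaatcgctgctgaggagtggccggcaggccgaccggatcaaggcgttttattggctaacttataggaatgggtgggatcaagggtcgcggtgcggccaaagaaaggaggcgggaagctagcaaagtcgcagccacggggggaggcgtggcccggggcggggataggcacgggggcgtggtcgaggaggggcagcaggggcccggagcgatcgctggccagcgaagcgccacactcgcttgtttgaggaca
Birc2, chr9:7837008-7837307, minus strand: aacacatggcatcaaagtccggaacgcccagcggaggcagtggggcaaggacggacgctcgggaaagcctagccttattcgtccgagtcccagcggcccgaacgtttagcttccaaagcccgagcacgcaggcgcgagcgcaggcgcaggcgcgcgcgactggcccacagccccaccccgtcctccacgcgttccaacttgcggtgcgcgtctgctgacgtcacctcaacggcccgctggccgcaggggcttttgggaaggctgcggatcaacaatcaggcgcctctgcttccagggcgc
Traf3, chr12:111166120-111166419, plus strand: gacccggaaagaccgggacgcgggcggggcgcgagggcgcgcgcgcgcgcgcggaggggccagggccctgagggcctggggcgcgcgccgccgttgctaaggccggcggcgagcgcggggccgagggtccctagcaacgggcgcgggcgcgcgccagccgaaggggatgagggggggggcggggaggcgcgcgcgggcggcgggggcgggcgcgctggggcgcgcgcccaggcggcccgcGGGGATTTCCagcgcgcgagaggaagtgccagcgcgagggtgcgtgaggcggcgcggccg
The match in *Traf3* starts 10 bases before the annotated start, on the plus strand. The consensus was searched on both strands and is held by 8.46% of 32851 RefSeq promoter windows of this length. The AP-1 word TGANTCA is held by 7.81% of windows and by none of the 8 genes. The PU.1 core GAGGAA is held by 28.28% of windows and by *Traf2*, *Traf3*, *Traf6* and *Birc3*. *Birc2* has a second RefSeq window, also without a consensus match. These matches describe letters in the windows only.

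Of the gates with levels given here, *Cd40* was highest in dendritic barcodes of both libraries. It stood within 1.5-fold of WT in macrophages of the KO-labelled library. In mature dendritic barcodes *Cd40* stood at 116 CPM (81.2 to 160.5, 36 UMIs) in the KO-labelled library and at 159 CPM (115 to 215, 42 UMIs) in WT. In conventional dendritic barcodes it stood at 37.8 CPM (29.4 to 47.8) and 37.4 CPM (26.8 to 50.7). In the macrophage gate without the library-specific cluster it stood at 16.1 CPM (15.02 to 17.3) and 17.6 CPM (16.8 to 18.5). The order mature dendritic, conventional dendritic, macrophage was thus the same in both libraries, with no overlap of neighbouring intervals. Below them came WT endothelial barcodes at 15.7 CPM (10.4 to 22.9), which overlapped the macrophages, and the WT fibroblast gate at 3.38 CPM (1.75 to 5.91). The neutrophil gate had 1 UMI in each library, 3.24 CPM (0.0820 to 18.0) in the one labelled CD40 KO and 1.55 CPM (0.0394 to 8.66) in WT. A 3′ tag outside the deleted part of a gene checks nothing about a knockout, and the allele is not known here, so the presence of *Cd40* tags in the KO-labelled library says nothing about its genotype.

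The library-specific cluster changed the sign of the *Cd40* difference between libraries. Over all macrophage gate barcodes *Cd40* stood at 17.9 CPM in the KO-labelled library and 17.6 CPM in WT, a log2 ratio of 0.02 (−0.09 to 0.13). Without the cluster the log2 ratio was −0.13 (−0.25 to −0.00), and the cluster itself stood at 22.7 CPM (20.5 to 25.1) in the KO-labelled library. In the dendritic gate the log2 ratio was −0.31 (−0.74 to 0.12), an interval that holds 0.

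Shares of barcodes with a *Cd40* UMI depended on depth and were compared at 3000 UMIs per barcode. Barcodes with fewer UMIs were left out of the thinned shares. Unthinned shares were 22.8% in the KO-labelled library and 21.1% in WT in the macrophage gate without the cluster, where barcodes had medians of 15883.5 and 12530 UMIs. Thinned, they were 4.93% (4.07 to 5.91) and 4.92% (4.37 to 5.51), so by this share the libraries could not be told apart outside the cluster. By CPM *Cd40* stood lower there in the KO-labelled library, at the log2 ratio of −0.13 given above. In the cluster itself 1938 of 4257 macrophage gate barcodes of the KO-labelled library had under 3000 UMIs and were left out. The thinned share of the other 2319 was 6.68% (5.70 to 7.78), above the WT interval outside the cluster. In the dendritic gate the unthinned shares of 42.7% and 36.3% became 10.8% (6.01 to 17.4) and 12.1% (6.93 to 19.2). In the neutrophil gate, taken as cells that should have little *Cd40*, 1.61% and 0.394% of barcodes had a UMI at medians of 3061.5 and 2349 UMIs. Thinning kept 34 of 62 and 58 of 254 neutrophil barcodes. After it that was 1 of 34 barcodes (2.94%) and 0 of 58, where 3 barcodes would be 5.17%. The thinned share of macrophages outside the cluster lay inside these neutrophil limits. By CPM, however, the WT macrophage interval lay above the WT neutrophil one.

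**Figure D1:**
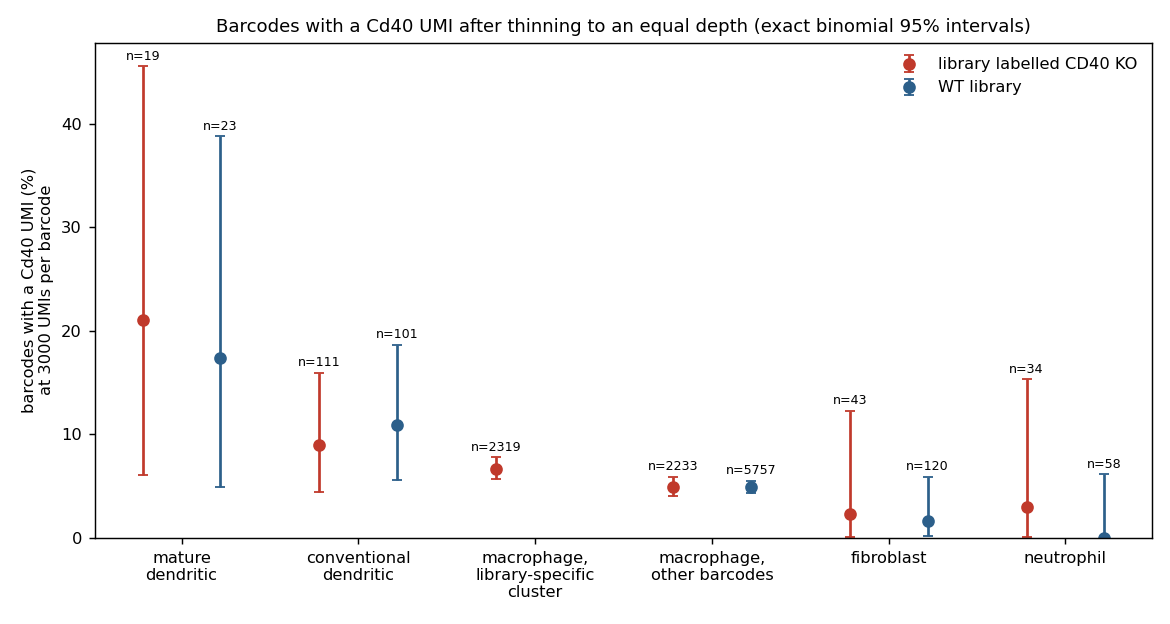
Share of barcodes with at least 1 *Cd40* UMI (y axis, %) after thinning to 3000 UMIs, by gate and library. Barcodes with fewer UMIs are left out. Exact binomial 95% intervals are drawn, with the number of barcodes above each. Mature and conventional dendritic barcodes are drawn apart, and the whole dendritic gate, at 10.8% and 12.1%, is not drawn. The macrophage points outside the library-specific cluster coincide at 4.93% and 4.92%, and that cluster lies at 6.68% in the KO-labelled library.

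*Map3k14* and *Traf1* had the largest dendritic over macrophage differences of the 9 genes in both libraries. *Map3k14*, which encodes NIK, stood at 234 CPM (214 to 256) in the dendritic gate of the KO-labelled library and at 228 CPM (203 to 255) in that of WT. In the macrophage gate without the cluster it stood at 42.5 and 26.7 CPM. The log2 difference between dendritic and macrophage barcodes was therefore 2.46 (2.32 to 2.61) in the KO-labelled library and 3.09 (2.92 to 3.26) in WT.

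*Traf1*, an adaptor without the RING domain of its relatives that is itself a known NF-kB target, showed a like contrast. It stood at 337 CPM (313 to 363) in dendritic barcodes of the KO-labelled library and 298 CPM (269 to 328) in those of WT, against 74.2 and 43.3 CPM in macrophages. The log2 difference was 2.18 and 2.78. *Birc2* stood 1.73 and 2.07 higher on the log2 scale in dendritic barcodes, and *Cd40* 1.61 and 1.79 higher. *Traf6*, the adaptor that CD40 shares with Toll-like and interleukin-1 receptors, stood at 132 and 96.3 CPM in dendritic barcodes and at 71.6 and 57.2 CPM in macrophages, a log2 difference of 0.88 and 0.75. Dendritic barcodes were thus above macrophages for these 5 genes in both libraries, with no overlap of intervals.

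*Traf2*, *Traf3*, *Traf5* and *Birc3* were less clearly dendritic. *Traf3* stood at 309.8 CPM in dendritic barcodes of the KO-labelled library and 372 CPM in those of WT, against 277 and 243 CPM in macrophages, a log2 difference of 0.16 (0.05 to 0.27) and 0.61 (0.48 to 0.74). *Birc3* differed by 0.07 and 0.49, and *Traf5*, a close relative of TRAF3 by sequence, by 0.03 and 0.27, with intervals for *Traf5* that hold 0 in both libraries. *Traf2* differed by −0.01 in the KO-labelled library and 0.74 in WT, so it passed 1.5-fold in WT only. It was near 10 CPM in most gates and rested on 27 and 21 UMIs in the dendritic gate. By the 1.5-fold rule 5 of the 9 genes were higher in dendritic than in macrophage barcodes in the KO-labelled library, where 11.9% of all measured genes were. In WT 7 of 9 were higher, where 19.3% of all genes were. With conventional dendritic barcodes alone, 5 of 9 were higher in the KO-labelled library (11.5% of all genes) and 4 in WT (19.6%), *Cd40*, *Traf1*, *Map3k14* and *Birc2* in both, and none was lower (21% and 18.3%). No member was 1.5-fold lower, against 20.9% and 19.1% of all genes. The median log2 difference of the 9 genes was 0.88 and 0.75, beside −0.14 and 0.01 over all genes.

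Within the dendritic gate the mature barcodes were higher for nearly the whole group. *Birc2* showed the widest gap in the KO-labelled library, with 348 CPM (285 to 420.0) in mature and 46.0 CPM (36.7 to 57.0) in conventional barcodes. In WT it stood at 185 CPM (137 to 245) and 43.8 CPM (32.3 to 58.1). The mature over conventional log2 difference of *Birc2* was 2.92 in the KO-labelled library and 2.08 in WT. For *Cd40* it was 1.62 and 2.09, and for *Traf1* 1.09 and 1.60. *Traf1* was detected in 19 of 19 mature barcodes of the KO-labelled library and in 23 of 23 of WT. *Map3k14* followed with 1.10 and 0.92, *Traf6* with 0.96 and 1.17, and *Traf3* with 0.87 and 0.67, all with intervals above 0. By the 1.5-fold rule 8 of 9 genes were higher in mature barcodes in the KO-labelled library, against 20.6% of all genes, with *Traf5* the exception. In WT 8 of 9 were also higher, against 18% of all genes, with *Birc3* the exception at 0.51. None was lower, against 22.4% and 29.4% of all genes. The intervals of *Traf2* and *Traf5* hold 0 in both libraries, with 7 to 20 UMIs behind each value of *Traf2* and 15 to 76 behind those of *Traf5*. Levels of *Birc2* in mature barcodes also differed between libraries, with intervals that do not overlap, whereas those of the other 8 genes overlapped.

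**Figure D2:**
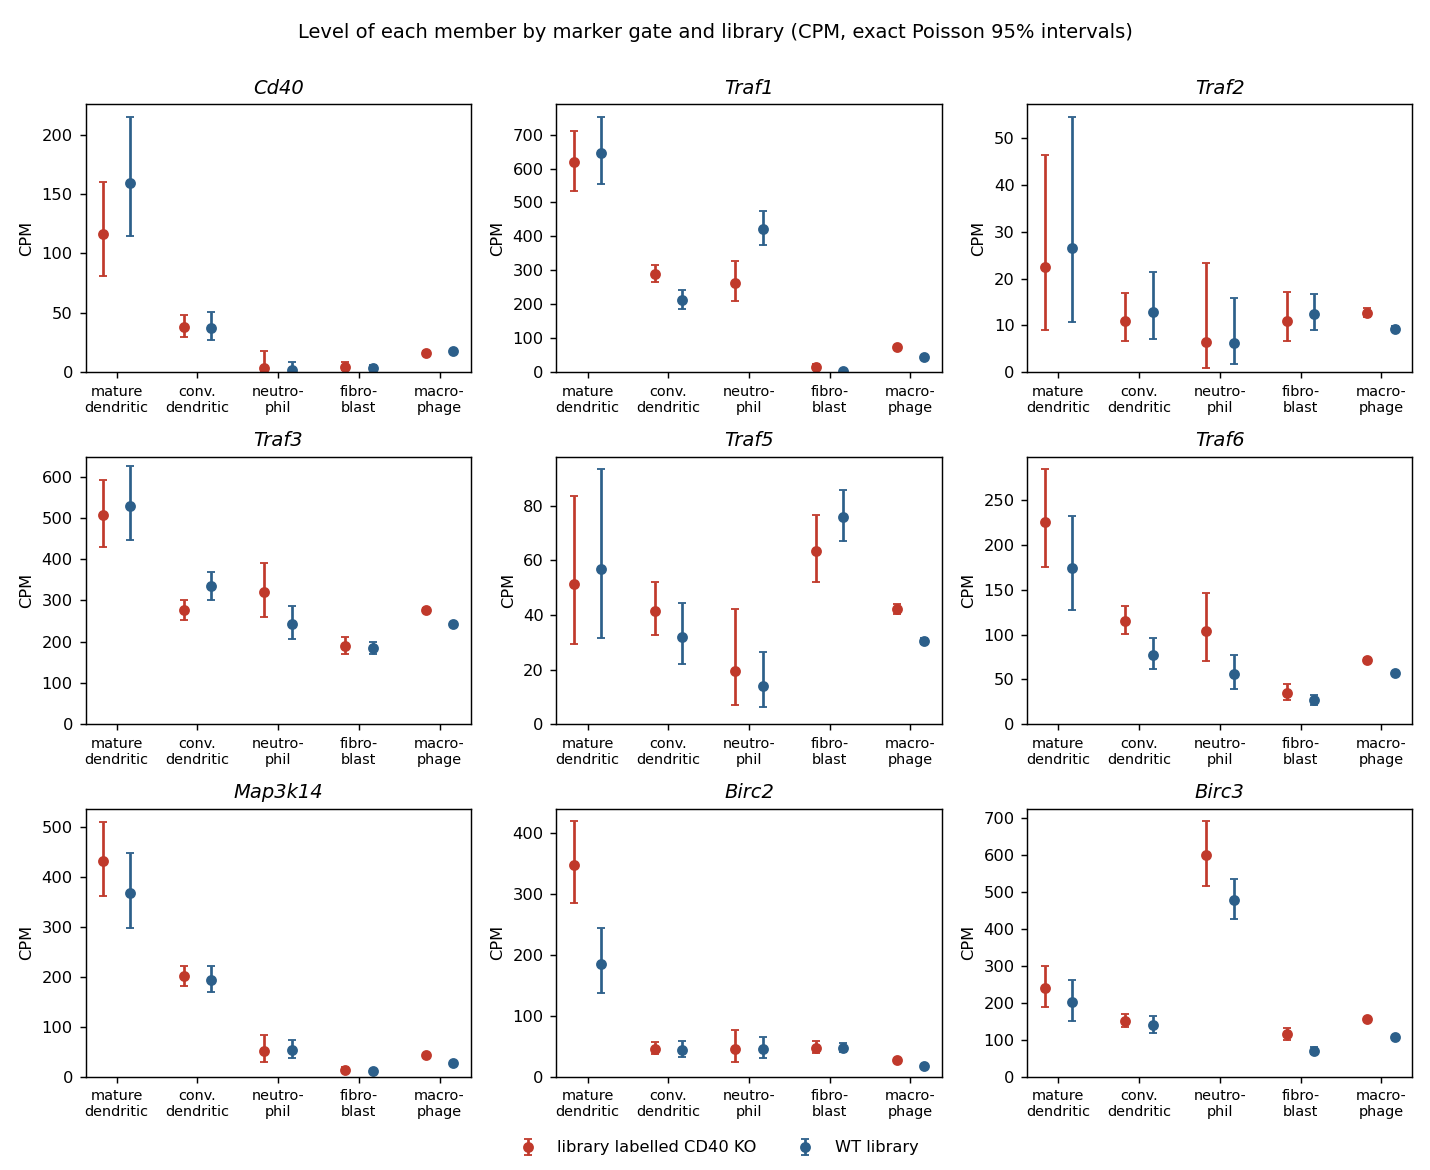
Level of each gene (y axis, CPM, linear and starting at 0, scaled separately for each gene) by marker gate and library, with exact Poisson 95% intervals; macrophages are shown without the library-specific cluster. Of the gates drawn, *Cd40*, *Traf1*, *Map3k14* and *Birc2* peak in mature dendritic barcodes. *Birc3* peaks in neutrophils at 599 and 479 CPM, and *Traf5* in fibroblasts at 63.5 and 76.1 CPM.

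Neutrophil barcodes, few as they were in this sort, held the highest levels of *Birc3* and a high level of *Traf1*. *Birc3* stood at 599 CPM (516 to 692, 185 UMIs) in the neutrophil gate of the KO-labelled library and 479 CPM (427 to 535, 308 UMIs) in that of WT. *Traf1* stood at 262 CPM (208 to 326) and 423 CPM (374 to 476) there. Against macrophages without the cluster the log2 difference of *Birc3* was 1.94 and 2.14, that of *Traf1* 1.82 and 3.29, and that of *Traf5* −1.12 and −1.13. Of the 7 genes measured in this comparison 3 were higher and 1 lower in the KO-labelled library, where 19.9% and 30.9% of all genes were. In WT 4 were higher and 1 lower, where 24.9% and 37.3% of all genes were. The 10 neutrophil markers, on which this gate was cut, summed to 32455 and 42212 CPM in it, against 246 and 345 CPM in the macrophage gate without the cluster. Between the libraries *Traf6* was higher, at 104 CPM in the KO-labelled library and 56.0 CPM in WT (log2 ratio 0.89, 0.15 to 1.62), and *Traf1* lower (−0.69). That is 1 of 7 in each direction, where 27.2% and 17.8% of all genes were.

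*Traf5* and the fibroblast gate made the other exception. *Traf5* stood at 63.5 CPM (52.2 to 76.5) in 45 fibroblast barcodes of the KO-labelled library and 76.1 CPM (67.3 to 85.7) in 129 of WT, above the 42.2 and 30.5 CPM of macrophages. *Traf3*, by contrast, was present in every gate with enough barcodes, from 63.5 CPM in WT endothelial barcodes to 372 CPM in WT dendritic barcodes. Fibroblast barcodes held 190.5 and 184 CPM of it, below macrophages of the same library. *Map3k14* was at its lowest in fibroblasts, at 13.3 and 11.8 CPM. Between the libraries 1 of 7 measured genes was 1.5-fold higher in the fibroblast gate and 0 lower, where 9.58% and 16.4% of all genes were. It was *Birc3*, at 115 CPM in the KO-labelled library and 69.6 CPM in WT (log2 ratio 0.73, 0.45 to 1.0).

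Over pools of 1 gate in 1 library with at least 50 barcodes (8 pools, 8589 genes), the genes most like each member were listed by Pearson correlation of log2(CPM + 1). The pools share libraries, depth and cells of like type, so these are descriptions. For *Cd40* they were *Zbtb18* (0.97), *Psme1* and *Tbc1d9* (0.96 each), for *Traf1* *Zc3hav1*, *Fxyd5* and *Scaf4* (0.99 each), and for *Traf3* *Cers6* (0.98), *Ston2* and *Runx1* (0.97 each). For *Map3k14* they were *Aftph* (0.98) and *Zbed4* (0.97), and for *Traf6* *Auh* (0.99), *Synj1* and *Atxn7l1* (0.98 each). *Birc3* was most like *Resf1* (0.996) and *Rnf141* and *Gm26885* (0.99 each), and *Birc2* most like *Map4k4* (0.95), *Rabgap1l* and *Aff4* (0.94 each). *Traf2* was most like 2610020C07Rik, *Dop1a* and *Terf2* (0.96 to 0.97), and *Traf5* most like *Arhgap6*, *Ppa2* and *Magohb* (0.98). Among the members themselves *Traf6* ran closest to *Traf1* and *Map3k14* (0.87 each), and *Birc3* ran opposite to *Traf2* (−0.83).

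The comparison of the libraries asked how the CD40 signalling genes stood in infarct macrophages labelled CD40 KO. *Traf1* showed the largest difference of the 9. In the macrophage gate it stood at 72.9 CPM (70.9 to 75.0) in the KO-labelled library and 43.3 CPM (42.0 to 44.6) in WT, a log2 ratio of 0.75 (0.69 to 0.81). Without the library-specific cluster the values were 74.2 and 43.3 CPM and the ratio 0.78 (0.71 to 0.84). At 3000 UMIs per barcode a *Traf1* UMI was seen in 18.9% (17.3 to 20.5) of macrophage barcodes outside the cluster in the KO-labelled library and in 10.8% (10.0 to 11.6) in WT. The difference thus held at equal depth and with or without the cluster.

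*Map3k14* and *Birc2* were also 1.5-fold higher in the KO-labelled library, though by a margin that counting error spans. *Map3k14* stood at 40.5 CPM (38.9 to 42.0) in the KO-labelled library and 26.7 CPM (25.7 to 27.8) in WT, a log2 ratio of 0.60 (0.52 to 0.68). *Birc2* stood at 25.5 CPM (24.3 to 26.8) and 16.9 CPM (16.1 to 17.7), a log2 ratio of 0.59 (0.50 to 0.69). Both intervals cross the 1.5-fold limit of 0.585. Without the cluster the ratios were 0.67 and 0.68.

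The remaining adaptors and *Birc3* differed by less than 1.5-fold. *Traf5* stood at 43.4 and 30.5 CPM (log2 ratio 0.51) and *Traf2*, the adaptor that brings the cIAPs to the receptor, at 13.1 and 9.29 CPM (0.50). *Birc3* stood at 134 and 108 CPM, a ratio of 0.31 with the cluster and 0.52 without it, and *Traf6* at 64.2 and 57.1 CPM, a ratio of 0.17 and 0.32. *Traf3*, the inhibitor in the complex, was the one adaptor whose sign turned with the cluster, from −0.05 (−0.08 to −0.02) with it to 0.19 (0.16 to 0.22) without it.

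In total 3 of the 9 genes were 1.5-fold higher and 0 lower in the KO-labelled library, where 6.3% of all 7552 measured genes were higher and 3.05% lower. Without the cluster the same 3 genes were higher, beside 8.57% and 3.53% of all genes. The median log2 ratio of the 9 was 0.50, beside −0.00 over all genes, and without the cluster 0.47, beside 0.09. The count fell to 1, *Traf1*, when barcodes were thinned to 3000 UMIs and when clusters were given equal shares in both libraries. Thinning left out barcodes with under 3000 UMIs, so it changed the set of barcodes as well as the depth. The share of all genes under these settings is not given here. In the dendritic gate none of the 9 passed 1.5-fold in either direction, where 10.1% of all genes were higher and 12.6% lower. *Traf6* had a ratio of 0.45 (0.15 to 0.76) there, *Traf1* 0.18 (0.00 to 0.36), *Map3k14* 0.04 (−0.17 to 0.25) and *Traf3* −0.26 (−0.43 to −0.09).

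Markers of other cell types also differed between the libraries in the macrophage gate. The 8 fibroblast markers summed to 106 CPM in the macrophage gate of the KO-labelled library and 13.5 CPM in that of WT, and to 33.6 and 13.5 CPM without the cluster. The mature dendritic markers, whose barcodes held the most *Traf1*, summed to 25.2 CPM in the KO-labelled library and 8.10 CPM in WT, and to 14.7 and 8.12 CPM without the cluster. The conventional dendritic markers other than *Cd24a* summed to 22.9 and 11.6 CPM, and to 20.6 and 11.6 CPM without the cluster. With *Cd24a* the full conventional list was nearly level, at 73.8 and 71.6 CPM, and at 70.5 and 71.6 CPM without the cluster. So the mature dendritic markers, and the conventional ones other than *Cd24a*, were above WT in the macrophage gate of the KO-labelled library. *Traf1*, *Map3k14* and *Birc2* are also high in dendritic barcodes. The neutrophil markers summed to 439 and 345 CPM, and to 246 and 345 CPM without the cluster, so their direction turned with it. The part of these markers in the results was not tested.

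**Figure D3:**
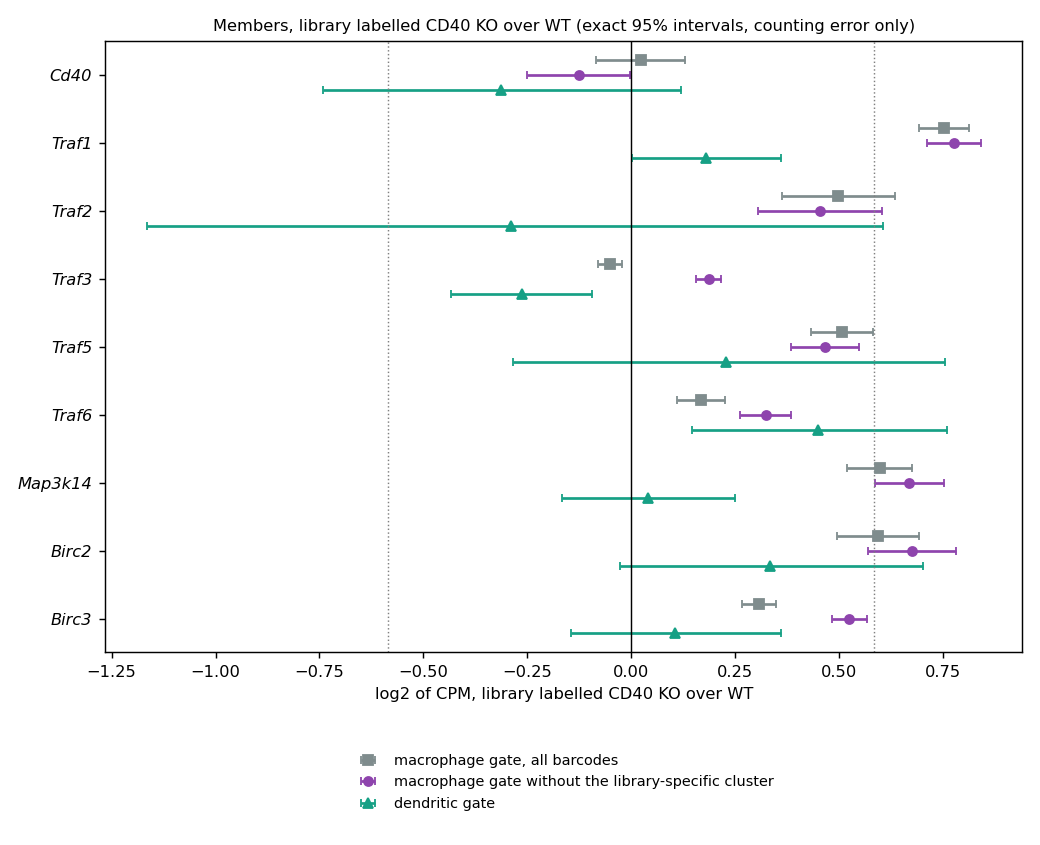
Log2 ratio of CPM in the KO-labelled library over WT (x axis) for each gene, in the macrophage gate with all barcodes, in the macrophage gate without the library-specific cluster and in the dendritic gate, with exact 95% intervals; dotted lines mark 1.5-fold. *Traf1* lies farthest to the right in macrophages at 0.75 and 0.78, and its dendritic value is 0.18.

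The library-specific cluster differed from the other macrophage barcodes of its own library mainly in *Traf3*, *Birc3* and *Traf6*. *Traf3* stood at 117 CPM (112 to 122) in it and 277 CPM (272 to 282) in the other macrophage gate barcodes of the KO-labelled library, a log2 difference of −1.24 (−1.31 to −1.18). *Birc3* stood at 72.5 and 156 CPM (−1.10), and *Traf6* at 43.8 and 71.6 CPM (−0.71). *Traf1* was nearly level at 69.4 and 74.2 CPM (−0.10). So 3 of 9 genes were 1.5-fold lower and 0 higher in the cluster, where 40.2% of all genes were lower and 7.55% higher. A share of this kind is near the background of that cluster and is no result about the 9 genes.

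The ratios were then taken inside single clusters of the macrophage gate, where both libraries had at least 50 barcodes. *Traf1* was above WT in all 5 clusters shown. In the interferon-response cluster it stood at 96.9 CPM in 186 barcodes of the KO-labelled library and 40.2 CPM in 409 of WT, a log2 ratio of 1.27 (0.97 to 1.57). In the cycling cluster it stood at 68.3 and 33.9 CPM (1.01), in the lipid-associated cluster at 32.1 and 17.9 CPM (0.85), and in the cluster that also held neutrophil genes at 116 and 83.3 CPM (0.48). The smallest gap was in the cluster led by *Ly6c2*, *Plcb1* and *Met*, with 82.3 CPM (1029 barcodes) in the KO-labelled library and 64.4 CPM (1527 barcodes) in WT, a ratio of 0.35 (0.25 to 0.46). *Map3k14* and *Birc2* were also above WT in these 5 clusters, by 0.43 to 0.73 and by 0.23 to 0.75. The interval of *Birc2* held 0 in the interferon-response cluster, at 26.5 CPM (19.99 to 34.4) in the KO-labelled library and 21.4 CPM (17.3 to 26.2) in WT.

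In the interferon-response cluster *Traf3* was also above WT, at 435 CPM in the KO-labelled library and 293 CPM in WT (0.57, 0.45 to 0.70). *Cd40* was below WT in the cycling cluster, at 16.04 and 22.2 CPM (−0.47, −0.76 to −0.18), and in the *Met* and *Ly6c2* cluster, at 13.9 and 18.2 CPM (−0.38, −0.62 to −0.15). In the other 3 clusters its interval held 0. By the 1.5-fold rule 0 genes of the 9 were higher in the *Met* and *Ly6c2* cluster (6% of all genes), 4 in the interferon-response cluster (13%), 3 in the lipid-associated cluster (5.83%), 2 in the cycling cluster (8.88%) and 2 in the cluster with neutrophil genes (12%). None was lower in these 5 clusters, where 4.38%, 9.78%, 1.85%, 3.79% and 6.69% of all genes were. A further cluster was shallow, with 59 and 55 barcodes and 0 to 22 UMIs of each member per library. There 1 of 8 measured genes was higher and 2 were lower, where 28% and 29.1% of all genes were, and every member's interval held 0.

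**Figure D4:**
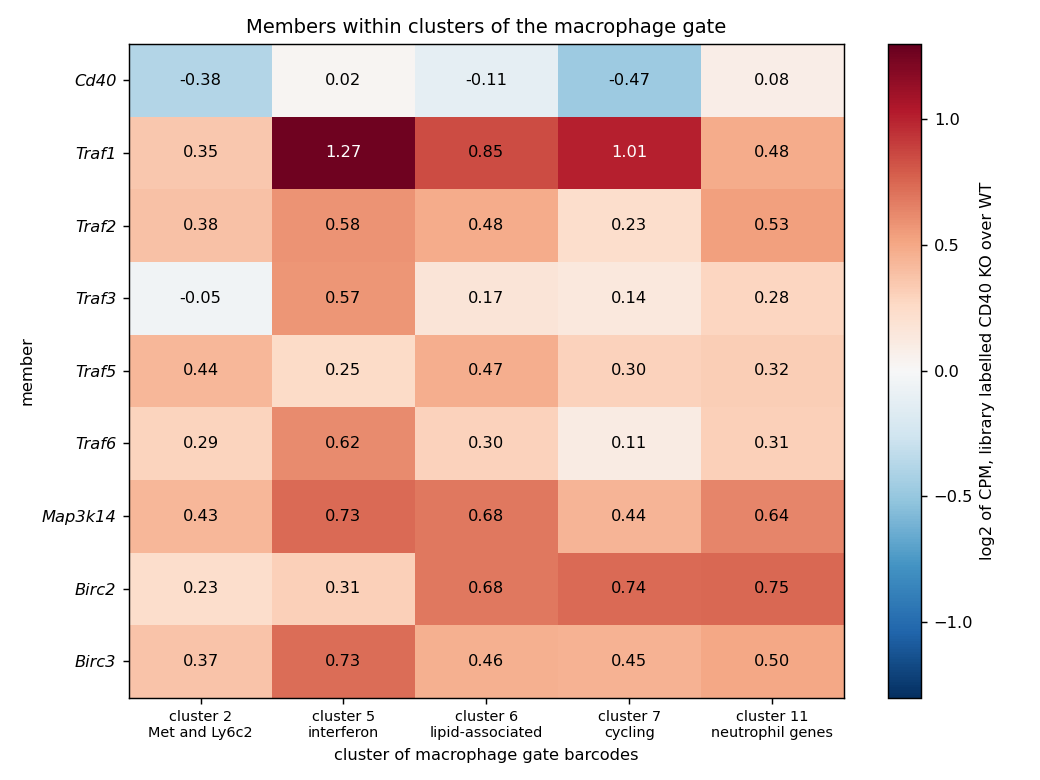
Log2 ratio of CPM in the KO-labelled library over WT for each gene (rows) within 5 clusters of the macrophage gate (columns); red is higher and blue lower in the KO-labelled library. The *Traf1* row is positive throughout, between 0.35 and 1.27, and the *Cd40* row lies between −0.47 and 0.08.

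States inside the macrophage gate were read from marker lists, with the library-specific cluster left out. A state is a range of a per-barcode score and not a type: 34 to 362 of 2342 barcodes in the KO-labelled library and 123 to 858 of 6042 in WT lay within 20% of the cut of each state, and the cuts were set after the scores had been seen. Barcodes rich in lipid-associated macrophage genes (*Gpnmb*, *Fabp5*, *Lpl*, *Spp1* and others) numbered 203 in the KO-labelled library and 2057 in WT, and the 9 genes in the KO-labelled library and the 8 measured in WT stood below the rest in them. *Traf1* stood at 26.6 CPM in high barcodes and 79.1 CPM in the rest of the KO-labelled library (log2 difference −1.57, −1.85 to −1.31), and at 24.8 and 55.5 CPM in WT (−1.16, −1.27 to −1.06). *Birc3* stood at 98.5 and 162 CPM (−0.72), and at 76.3 and 129.5 CPM in WT (−0.76). *Map3k14* differed by −0.82 and −1.03. The intervals of *Cd40* and *Traf2* in the KO-labelled library hold 0. By the 1.5-fold rule 3 of 9 genes were lower in the KO-labelled library, against 10.9% of all genes, and 4 of the 8 measured were lower in WT, against 7%. None was higher, against 2.94% and 1.42%. The conventional dendritic markers summed to 66.0 CPM in high and 70.9 CPM in other barcodes of the KO-labelled library and to 69.1 and 73.3 CPM in WT. Without *Cd24a* they summed to 9.85 and 21.7 CPM in the KO-labelled library and to 6.05 and 15.2 CPM in WT, and their part was not tested. The high barcodes were deeper, with medians of 19837 and 15441 UMIs in high and other barcodes of the KO-labelled library and of 15374 and 11188 in WT.

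*Cd40* was the gene that followed the interferon response. In barcodes rich in *Ifit1*, *Ifit2*, *Ifit3*, *Rsad2*, *Isg15* and *Cxcl10* it stood at 39.7 CPM, against 14.1 CPM in the rest of the KO-labelled library, a log2 difference of 1.49 (1.23 to 1.75). In WT it stood at 36.9 and 16.1 CPM, a difference of 1.19 (1.0 to 1.39). The other 8 genes differed by at most 0.40 in the KO-labelled library and 0.42 in WT. *Cd40* was thus 1 of 9 and 1 of 8 measured genes past 1.5-fold, where 4.15% and 4.01% of all genes were. The list holds well-known interferon-induced genes, and the high barcodes numbered 218 and 515.

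Barcodes rich in MHC class II genes, which present antigen to CD4+ T cells, had more *Cd40*, *Traf1* and *Map3k14*. In the KO-labelled library *Cd40* stood at 28.2 CPM in 124 high barcodes and 15.6 CPM in the rest (0.86, 0.45 to 1.24), *Traf1* at 136 and 71.4 CPM (0.93) and *Map3k14* at 70.8 and 41.2 CPM (0.78). In WT, with 492 high barcodes, *Cd40* stood at 25.9 and 17.02 CPM (0.60, 0.37 to 0.83), *Traf1* at 93.3 and 39.7 CPM (1.23) and *Map3k14* at 60.4 and 24.3 CPM (1.32). These 3 were the members past 1.5-fold in either library, 3 of 9 and 3 of 8 measured, where 5.75% and 4.69% of all genes were. Dendritic barcodes share this pattern, so their markers were read beside it. Barcodes that met the dendritic gate, which needs MHC class II genes, had already been left out of the macrophage gate. The dendritic sums of the high barcodes were thus held down by the gating and cannot gauge admixed cells. The conventional dendritic markers summed to 101 CPM in high and 69.1 CPM in other barcodes of the KO-labelled library, and to 78.0 and 71.1 CPM in WT. Without *Cd24a* they summed to 56.4 and 18.9 CPM, and to 43.8 and 9.25 CPM in WT. The mature dendritic markers summed to 23.4 and 14.3 CPM, with 2 and 1 of 10 at 0, and to 10.0 and 7.98 CPM in WT, with 4 and 0 of 10 at 0. The macrophage markers summed to 7213 and 9579 CPM, and to 13187 and 14392 CPM in WT. The part of admixed dendritic cells was not tested.

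Among barcodes rich in Ly6c monocyte genes (*Ly6c2*, *Plac8*, *Chil3* and others) 3 genes passed 1.5-fold over the rest in WT and none did in the KO-labelled library. *Map3k14* stood at 57.2 CPM in 541 high barcodes and 38.6 CPM in the rest of the KO-labelled library (0.57), and at 45.7 and 24.9 CPM in WT (0.88, 735 high barcodes). *Birc3* differed by 0.48 and 0.56 and *Traf1* by 0.38 and 0.76. The background was 4.63% of all genes for the 0 of 9 in the KO-labelled library and 6.57% for the 3 of 8 in WT (*Traf1*, *Map3k14* and *Birc2*). The macrophage markers summed to 6037 CPM in high and 10392 CPM in other barcodes of the KO-labelled library, and to 9806 and 14749 CPM in WT. The conventional dendritic markers summed to 94.97 and 64.0 CPM, and to 80.8 and 70.7 CPM in WT, and without *Cd24a* to 24.01 and 19.6 CPM, and to 14.4 and 11.3 CPM in WT. The neutrophil markers summed to 296 and 233 CPM, and to 290 and 350 CPM in WT. The part of these markers was not tested. *Cd40* had opposite signs, −0.31 (−0.58 to −0.04) and 0.35 (0.13 to 0.57). It was also lower in barcodes rich in *Met*, *F13a1*, *Plcb1* and *Thbs1*, at 11.8 and 17.8 CPM in the KO-labelled library (−0.59, −0.85 to −0.34; 5.95% of all genes were 1.5-fold lower) and 14.1 and 17.8 CPM in WT (−0.34, −0.69 to 0.00). In macrophage barcodes with more neutrophil transcripts *Traf1* stood at 106 and 73.2 CPM in the KO-labelled library (0.54) and at 88.5 and 39.99 CPM in WT (1.15). In WT *Traf1* and *Birc3* passed 1.5-fold there, 2 of 8, where 3.08% of all genes did. In the KO-labelled library 0 of 9 were higher there, where 337 of 7686 measured genes were. The neutrophil markers, on which this state was cut, summed to 2416 CPM in high and 177 CPM in other barcodes of the KO-labelled library. In WT they summed to 2079 and 217 CPM, and their part was not tested.

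**Figure D5:**
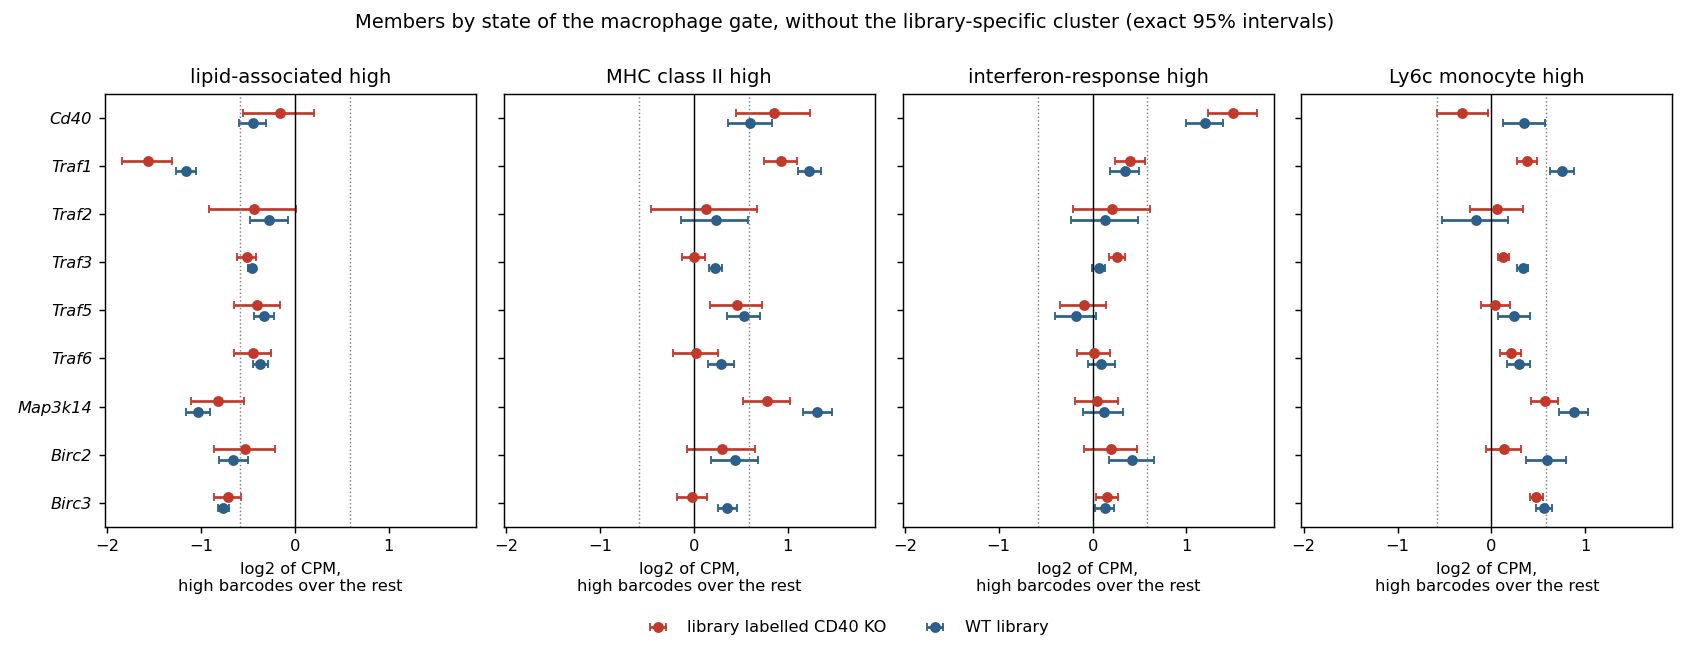
Log2 difference in CPM between macrophage gate barcodes high for a state and the rest of the gate (x axis), for each gene in 4 states and both libraries, with exact 95% intervals; dotted lines mark 1.5-fold. All points lie left of 0 for lipid-associated barcodes, and *Cd40* stands alone past 1.5-fold in interferon-response barcodes at 1.49 and 1.19.

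Genes around the group were read from 6 lists that share some members with other lists or with marker lists (*Birc5* is also a cycling marker, *Ccl22* a mature dendritic marker and *Mmp9* a neutrophil marker). The counts are for the macrophage gate, KO-labelled library against WT, at 1.5-fold, beside the 6.3% higher and 3.05% lower given above. Of the NF-kB subunits and inhibitors 1 of 11 was higher and 1 lower, with a median log2 ratio of 0.17. *Nfkbie*, which encodes the inhibitor IkB-epsilon, stood at 96.2 and 47.9 CPM (1.01), and *Nfkbia*, which encodes IkB-alpha, at 1467 and 2229 CPM (−0.60, and −0.45 without the cluster). *Bcl3*, a nuclear IkB protein, had a ratio of 0.57. None of the 15 measured genes of the IKK and TAK1 complexes and their partners passed, with a median of 0.12. *Map3k5* and *Ripk2* were at the top at 0.43 each, and passed without the cluster at 0.67 and 0.64.

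Of 10 measured TRAF relatives and TRAF-binding regulators 0 were higher and 1 lower, with a median of −0.05. *Cyld*, a deubiquitinase that restrains NF-kB signalling, stood at 63.2 and 43.3 CPM (0.55, and 0.74 without the cluster), and *Tifa*, which binds TRAF6, at 28.9 and 44.3 CPM (−0.62). Of 11 other IAP genes and IAP antagonists none passed, from *Diablo* at −0.45 to *Birc5* at 0.47. Of the TNF receptors that use TRAF adaptors and their ligands 7 of 19 were measured, with 0 higher, 1 lower and a median of 0.03. *Tnf* itself was the lower one at 152 and 229 CPM (−0.60, and −0.53 without the cluster). *Tnfsf9* stood at 49.9 and 35.4 CPM (0.50, and 0.59 without the cluster). Without the cluster 1 was higher, *Tnfsf9*, and 0 were lower.

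Genes known to rise on CD40 ligation did not move one way. Of 15 measured 6 were 1.5-fold higher and 2 lower in the KO-labelled library, with a median of 0.26. *Ptgs2*, which encodes cyclooxygenase-2, stood at 291 and 107 CPM (1.44) and *Ccl5*, a chemokine for T cells and monocytes, at 68.9 and 31.5 CPM (1.13). *Bcl2a1b*, a survival gene, stood at 398 and 663 CPM (−0.74) and the chemokine gene *Ccl3* at 246 and 391 CPM (−0.67). *Bcl2a1b* has near-identical copies, so its reads may be split among them. Without the cluster 5 were higher and 2 lower.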

How the data were processed

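Cells sorted from infarcted mouse hearts were captured with Chromium 3′ v3 chemistry as 1 library per group, per the labels. The deposited matrices are unnormalized UMI counts. Per the file headers the authors made them in Cell Ranger 7.0.1, and the submitters' processing notes also list STAR and the build mm10. The sources used here do not state whether reads in introns were counted.

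A barcode was kept at 1000 or more UMIs, 500 or more genes and a mitochondrial share of 10% or less, which left 7930 in the KO-labelled library (the one labelled CD40 KO) and 8094 in WT. The depth or gene minimum removed 2 and 1547 barcodes and the mitochondrial limit 214 and 983 more. The shallowest deposited barcodes had 1618 and 500 UMIs. The Scrublet threshold called 0 doublets, so the highest scores were removed at 0.8% per 1000 barcodes (503 and 524).

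The members and lists were chosen with earlier results of these data known. Gates used summed marker UMIs per 10000: at least 20 for macrophages, 30 for neutrophils, 20 for fibroblasts, 15 for endothelial cells and 10 for mature dendritic cells, with 3 or more markers detected. The dendritic gate needed 3 of both dendritic lists with 3 or more markers (2 at 100 or more UMIs of MHC class II genes), at least 50 UMIs of MHC class II genes per 10000 and at most 40 of macrophage markers. In the KO-labelled library 325 barcodes and in WT 204 lay near the macrophage cut (15 to 25). Clusters (14) came from 2000 variable genes without the members, 30 components, 15 neighbours and Leiden resolution 0.6. UMIs were summed per gate and library and scaled to counts per 1000000 (CPM). The exact intervals for ratios were checked on simulated Poisson counts only. Those counts hold no variation between barcodes or libraries, so the check says nothing about such variation here. No test between groups was made, and 1 library per group gives no replicate. All members are named. Genes like a member are the 3 with the highest correlation, of which 1 is not reported here, and list genes the 2 highest and 2 lowest ratios of each list, of which some are printed.

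Alternatives changed scaling, weights, depth, filters, doublets, gates, clusters, the fold and the floor. Those leaving out the cluster with neutrophil transcripts, or changing the macrophage base of the dendritic comparison, were added after the data were seen. Tools were Python 3.11.15, scanpy 1.11.5, numpy 2.4.6, scipy 1.17.1, pandas 2.3.3, igraph 0.11.9 and matplotlib 3.10.9.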

Additional observations from a re-analysis of the deposited data

Results flagged for a closer look

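*Traf1* stood out because its difference between the libraries had opposite signs in different gates, each outside its counting interval. Its log2 ratio, KO-labelled library over WT, was 0.78 in the macrophage gate without the library-specific cluster, 0.18 in the dendritic gate and −0.69 (−1.07 to −0.33) in the neutrophil gate, where 17.8% of all measured genes were 1.5-fold lower. In the fibroblast gate it was 2.98 (1.75 to 4.43), from 27 UMIs in 45 barcodes of the KO-labelled library (15.6 CPM) and 7 UMIs in 129 barcodes of WT (1.97 CPM), a mean below the 10 CPM floor. Macrophage markers had medians of 6.28 and 3.17 UMIs per 10000 in those fibroblast barcodes, and their part in the value was not tested.

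*Traf3* likewise changed sign between gates. Its log2 ratio was 0.19 in the macrophage gate without the cluster, 0.39 in the neutrophil gate and −0.26 in the dendritic gate. With 1 library per group the difference between gates was not tested for either gene.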

How the results depend on the processing

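The number of the 9 genes that were 1.5-fold higher in the macrophage gate of the KO-labelled library was 3. It was 1 after thinning to 3000 UMIs, with shallower barcodes left out, and 1 with cluster shares made equal, *Traf1* in both cases. At a fold of 1.3 it was 5. Under the other 10 settings it was 2 to 4. The share of all genes is given above for the main setting and without the library-specific cluster only, so the other counts have no background. The number lower was 0 in all 14 settings. The cause was not tested. Over those settings the log2 ratio of *Traf1* ran from 0.61 to 1.07, that of *Map3k14* from 0.49 to 0.79 and that of *Birc2* from 0.40 to 0.72. *Cd40* ran from −0.23 (cluster shares made equal) to 0.23 (thinned), *Traf3* from −0.52 (every barcode the same weight) to 0.19 (cell types by clusters), *Traf6* from −0.09 and *Birc3* from −0.06 (both with every barcode the same weight) to 0.37 and 0.63, so the signs of these 4 depend on the setting. Dendritic over macrophage, 5 to 7 genes were higher in the KO-labelled library and 6 or 7 in WT under 5 alternatives, whereas conventional dendritic barcodes alone gave 5 and 4. Shares of all genes are given above for the macrophage gate without the cluster and for conventional barcodes, and not for the other alternatives. No paired analysis was possible because each group has 1 library. Depth limits *Cd40* and *Traf2* in the neutrophil gate, with 1 to 4 UMIs each, and the mature dendritic levels, with 19 and 23 barcodes.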
